A study of Mus musculus with 3 samples.

Results

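The transcripts described here are those of orphan and adhesion G protein-coupled receptors in fluorescent cells sorted from the kidneys of Ren1c-YFP mice. Members were taken by name alone: every probe set with 1 gene symbol that begins with Adgr, or with Gpr followed by a digit. This gave 105 of the 21789 probe sets that carry 1 symbol, which stand for 97 of 19938 genes, namely 26 adhesion receptor genes (Adgr) and 71 Gpr-numbered genes. The name is wider than the label. Some Gpr-numbered genes have known ligands, some encode proteins of internal membranes that only resemble receptors, and Adgrd2-ps and Gpr137b-ps are annotated as pseudogenes.

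There is 1 group, with replicates 2, 4 and 5 on an array each. Cortex of adult male kidneys from Ren1c-YFP transgenic mice, whose strain is unspecified and whose reporter is named for the renin gene, was digested, and each array profiled cells sorted for yellow fluorescent protein. All mice had drunk captopril, which blocks angiotensin-converting enzyme, at 0.5 mg/ml and had eaten low-salt chow for 2 weeks. With no untreated or YFP-negative group, the values are levels in these cells and no effect of the drug, the diet or the sort can be read from them. Samples were not pooled, but the labels do not say that each came from its own mouse, and the p-values cover no more than the spread among the 3 samples, which may be technical.

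Adhesion receptors carry a long extracellular part that is cut from the membrane-spanning part by self-cleavage, and binding of a matrix or cell-surface partner can expose a tethered agonist that switches on G proteins. Orphan receptors are those for which no ligand is firmly established. In kidney, Adgrf5 is known from endothelium and from intercalated cells, Adgrl4 from endothelium, and Adgre1 from macrophages.

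The sorted samples carried mural transcripts together with those of other kidney cells. All 12 mural markers were above background, among them Acta2 (12.62 ± 0.06 log2 signal, mean ± SD, n = 3 here and below) and Rgs5 (12.37 ± 0.10), in samples labelled as the juxtaglomerular complex. The renin gene was not analysed here. Markers of proximal tubule (12 of 12), thick ascending limb (7 of 7) and endothelium (8 of 14, 57.1%) passed too, against 37.3% of all genes. Fibroblast markers passed in 3 of 8 cases (37.5%) and podocyte markers in 2 of 7 (28.6%), near or under the share of all genes. Of lymphocyte markers 0 of 8 passed, and of nerve and glia markers 0 of 9. The median of 35557 probe sets was a log2 signal of 6.09 in replicate 2, 6.11 in replicate 4 and 6.21 in replicate 5.

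A gene was called above background when its log2 signal exceeded a level set on each array by olfactory receptor genes, a large family of G protein-coupled receptors of which few are known from kidney. The level is their 95th percentile, 6.20, 6.32 and 6.50 in replicates 2, 4 and 5. The test was limma's, one-sided, with p adjusted over all genes and a threshold of 0.05. A signal also depends on how well a probe set binds, so signals are read against this level and not against those of other genes.

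Of the 97 genes 18 were above background (18.6%), against 37.3% of all genes, and 24 had an unadjusted p under 0.05. The share was 30.8% for adhesion receptors (8 of 26) and 14.1% for Gpr-numbered genes (10 of 71). The median mean signal was 5.90 for the 97 genes, against 6.33 for all genes. Without any test, 26 members (26.8%) exceeded the level on all 3 arrays, against 41.9% of all genes, and 53 (54.6%) exceeded it on none, against 43.7% of all genes. Among the olfactory receptor genes that set the level 2.04% were called, and 1.2% of vomeronasal receptor genes, a sensory family that did not set it. A call does not say which of the sorted cells a transcript came from, and in these bulk samples fewer cells of a type and less RNA per cell cannot be told apart.

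**Figure D1:**
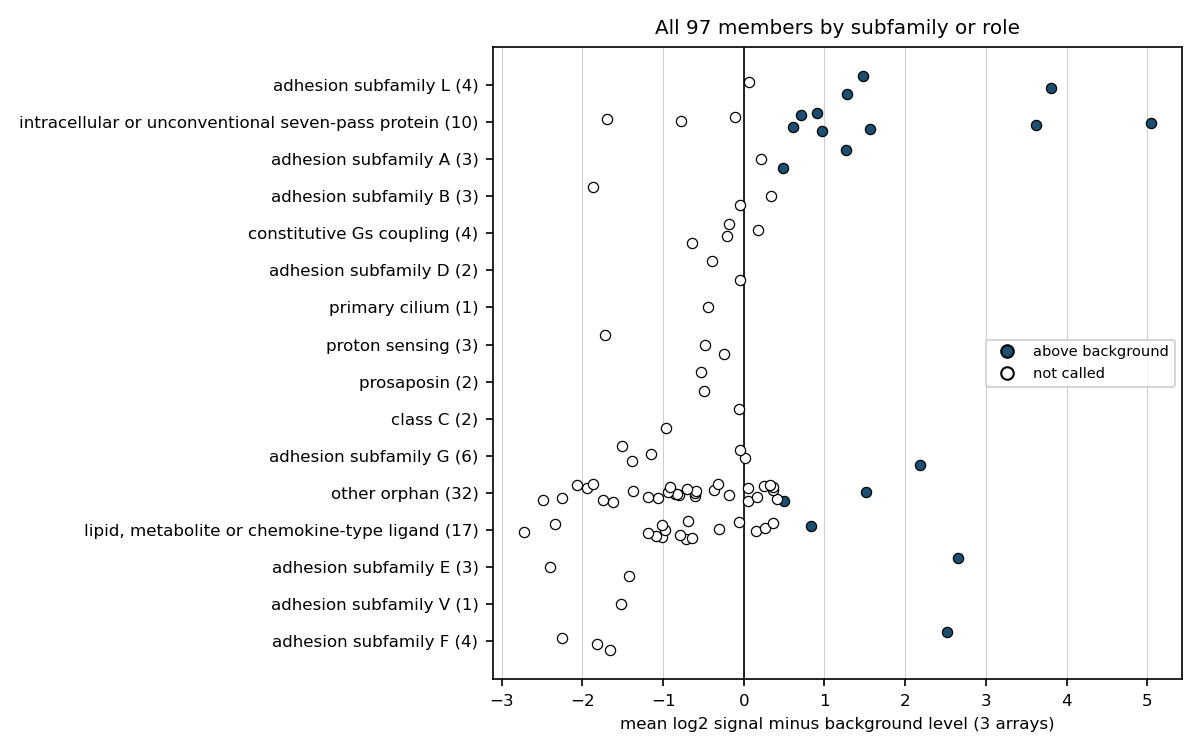
Mean log2 signal minus the background level over 3 arrays for each of the 97 genes, 1 point a gene, in rows by adhesion subfamily or role with the number of genes in brackets. Filled points passed limma's one-sided test and open points did not. The filled points lie mostly in adhesion subfamilies L and A and among the intracellular or unconventional proteins, and every gene of the proton-sensing, prosaposin and class C rows is open.

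Among adhesion receptors the calls were spread over 5 of the subfamilies. Each count below is of few genes and stands against 37.3% of all genes. Subfamily L passed in 3 of 4 genes, subfamily A in 2 of 3, and subfamilies E, F and G in 1 gene each, of 3, 4 and 6. Subfamilies B, D and V passed in 0 of 3, 0 of 2 and 0 of 1, where an unadjusted p fell under 0.05 for 1 gene of B and for no gene of D and V. These 8 called genes are described first.

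Of subfamily L, Adgrl1, Adgrl2 and Adgrl3 are the latrophilins, receptors of neuronal and vascular cells that bind teneurins and FLRT proteins. Adgrl2 had log2 signals of 10.58, 10.32 and 9.56 in replicates 2, 4 and 5. Its mean was 3.81 ± 0.30 (SE) above the level, with a limma adjusted p of 1.62e-05. Adgrl1 had signals of 7.92, 7.54 and 7.41, 1.28 ± 0.23 (SE) above the level (limma adjusted p = 0.00125), and differed little between arrays. Adgrl4, first described in developing heart and endothelium as Eltd1, had signals of 9.28, 7.36 and 6.82. All 3 exceeded the level, but that of replicate 2 stood 2.19 log2 units above the mean of the other arrays. The mean of Adgrl4 was 1.48 ± 0.46 (SE) above the level (limma adjusted p = 0.0188), and without replicate 2 it was 0.68 above and did not pass (limma adjusted p = 0.0581). Adgrl3, the last gene of the subfamily, had signals of 6.57, 6.02 and 6.64 and was not called (limma adjusted p = 0.729).

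The calls for Adgrl2 rest on 1 of its 8 probe sets, the brightest. Their means ran from 4.96 to 10.15, and 5 of the 8 exceeded the level on all 3 arrays. With the mean of the 8 in place of the brightest, the signals of Adgrl2 were 7.69, 7.68 and 6.99 and it still passed (limma adjusted p = 0.00356). Replicate 2 was the highest array for 5 of the probe sets and replicate 4 for 3, while replicate 5 was the lowest for 6, so the order of the arrays was not the same in every probe set. One of them gave 6.30 in replicate 2, against 8.13 and 8.02 in replicates 4 and 5. Which transcripts each probe set covers was not analysed here.

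**Figure D2:**
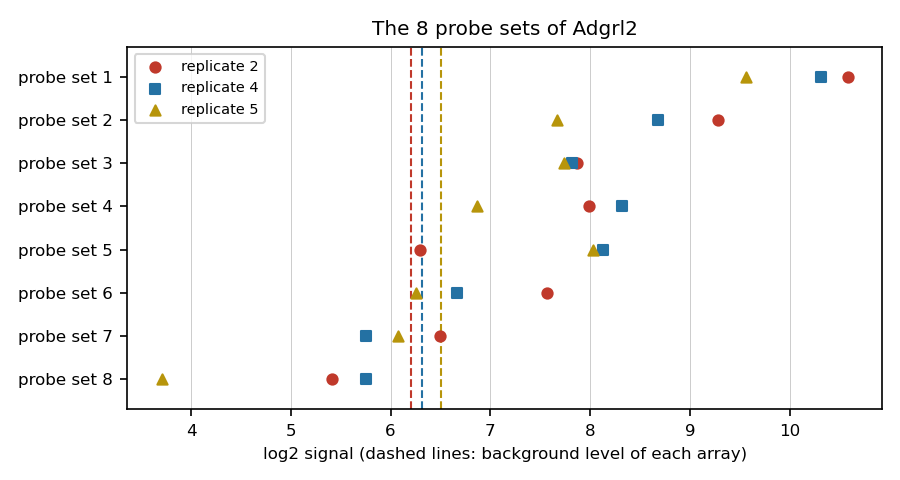
Log2 signal of the 8 probe sets of Adgrl2 on each of 3 arrays, ordered by mean, with the background level of each array as a dashed line in its colour. The brightest probe set has a mean of 10.15 and the dimmest one of 4.96, and the array that is highest changes between probe sets.

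The remaining 5 called adhesion receptors came from subfamilies E, F, G and A. Adgre5, which encodes CD97, a receptor of leukocytes and smooth muscle that binds CD55, had signals of 9.90, 8.86 and 8.22, 2.65 ± 0.37 (SE) above the level (limma adjusted p = 0.00034). Adgrf5, known as a regulator of lung surfactant, had signals of 9.70, 8.29 and 8.58, 2.51 ± 0.34 (SE) above (limma adjusted p = 0.000283). In both genes replicate 2 was the highest array, by 1.36 and 1.27 log2 units over the mean of the others. Adgrg1, a receptor for collagen III and transglutaminase 2 known from brain development, had signals of 8.23, 9.33 and 8.0, 2.18 ± 0.32 (SE) above (limma adjusted p = 0.000427), with replicate 4 highest by 1.22. Adgra3, a receptor-like protein tied to planar cell polarity, had signals of 7.67, 7.71 and 7.45, 1.27 ± 0.21 (SE) above (limma adjusted p = 0.000871). Adgra1 was close to the level, with signals of 6.84, 6.74 and 6.92, 0.49 ± 0.16 (SE) above (limma adjusted p = 0.0224), and missed the threshold when replicate 2 or replicate 4 was left out (limma adjusted p = 0.112 and 0.0949).

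**Figure D3:**
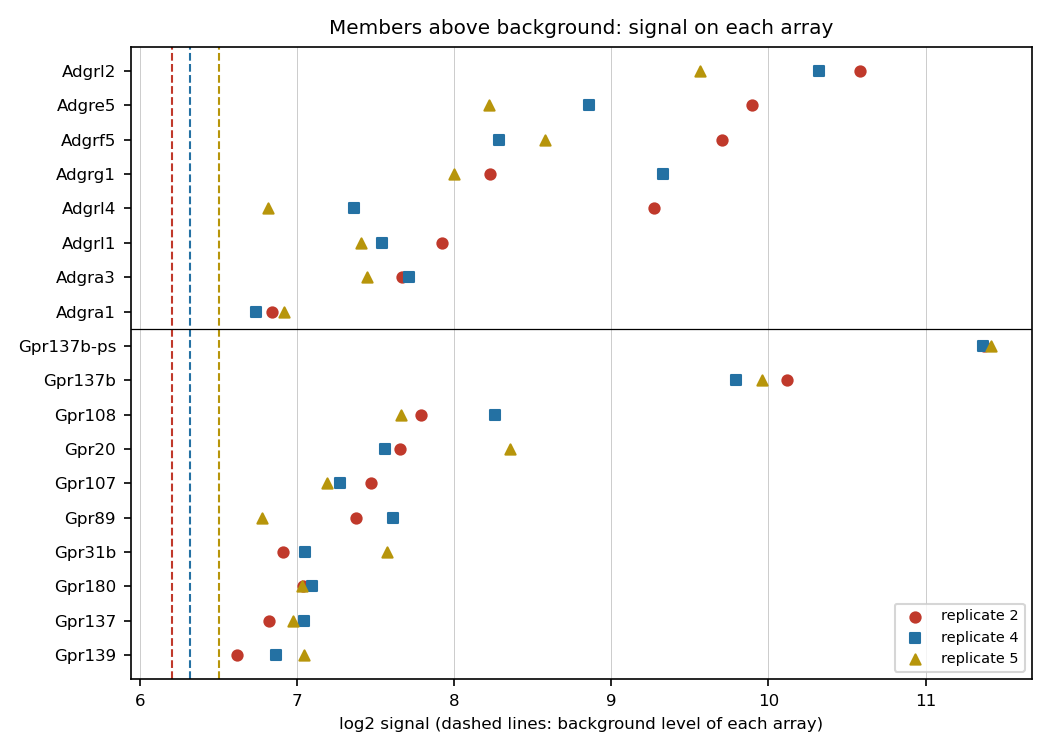
Log2 signal of the 18 genes above background on each of 3 arrays, adhesion receptors above the line and Gpr-numbered genes below it, with the background level of each array as a dashed line in its colour. The 3 points of Adgrl4, Adgre5, Adgrf5 and Adgrg1 lie more than 1 log2 unit apart, while those of Gpr137b-ps and Gpr180 nearly coincide.

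The other adhesion receptors did not pass. Adgra2, which acts with Reck in Wnt7 signalling to brain endothelium, had signals of 6.65, 6.42 and 6.58, all above the level, and a limma adjusted p of 0.243. Adgrb2, one of the brain-specific angiogenesis inhibitors, had signals of 6.49, 6.60 and 6.93 and a limma adjusted p of 0.0723. Adgrg3, known from granulocytes, was at the level (6.35 ± 0.14). Adgrb1, a phagocytosis receptor (6.30 ± 0.19), Adgrd1 (6.29 ± 0.02) and Adgrg6, required for myelination by Schwann cells (6.29 ± 0.23), had means just under it. The macrophage gene Adgre1 had signals of 4.98, 4.86 and 4.90, each more than 1 log2 unit under the level. Adgre4 (3.94 ± 0.08), Adgrf4 (4.09 ± 0.12), Adgrf2 (4.52 ± 0.11), Adgrf1 (4.69 ± 0.05), Adgrb3 (4.47 ± 0.15), Adgrv1 (4.81 ± 0.12), Adgrg7 (4.83 ± 0.28), Adgrg2 (4.96 ± 0.16) and Adgrg4 (5.19 ± 0.02) were also well under it, and the pseudogene Adgrd2-ps was at 5.95 ± 0.19.

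Of the 10 Gpr-numbered genes above background, 6 encode proteins that are found on internal membranes or lie outside the classical receptor families, and the pseudogene Gpr137b-ps was grouped with them. That group held 10 genes in all, of which 7 were called (70.0%), against 37.3% of all genes and 18.6% of the 97 members. Gpr137b, a lysosomal membrane protein, had signals of 10.12, 9.79 and 9.96, 3.62 ± 0.24 (SE) above the level (limma adjusted p = 6.64e-06). Gpr137b-ps had signals of 11.37, 11.36 and 11.42 and the smallest spread of the pair (limma adjusted p = 3.93e-07). A pseudogene can share sequence with its parent gene, so the signals of Gpr137b and Gpr137b-ps are uncertain as to which of the genes they measure. Gpr137, of the same family, had signals of 6.82, 7.05 and 6.97 and was called (limma adjusted p = 0.0107), though not once replicate 2 or replicate 4 was dropped (limma adjusted p = 0.0512 and 0.0866). Gpr137c was at 5.57 ± 0.08, under the level.

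Gpr107 and Gpr108 are related proteins of the Golgi. Gpr108 had signals of 7.79, 8.26 and 7.66, 1.56 ± 0.24 (SE) above the level (limma adjusted p = 0.000519), and Gpr107 signals of 7.47, 7.27 and 7.19, 0.97 ± 0.20 (SE) above (limma adjusted p = 0.0026). Gpr89, which helps to set the pH of the Golgi, had signals of 7.37, 7.61 and 6.77 (limma adjusted p = 0.00881) and missed the threshold without replicate 2 (limma adjusted p = 0.0578). Gpr180, tied to thickening of the vessel wall in mice, had signals of 7.04, 7.10 and 7.03 (limma adjusted p = 0.00607). In these genes all 3 arrays were above the level and within 1 log2 unit. Gpr155, a lysosomal cholesterol sensor (6.23 ± 0.05), and Gpr143, of the melanosome (4.64 ± 0.28), did not pass.

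The remaining 3 called genes were Gpr20, Gpr31b and Gpr139. Gpr20, a receptor that couples to Gi without added ligand, had signals of 7.66, 7.56 and 8.36, 1.52 ± 0.22 (SE) above the level (limma adjusted p = 0.000458), with replicate 5 highest by 0.75. Gpr31b belongs to a family whose human gene responds to the lipid 12-HETE, and had signals of 6.91, 7.05 and 7.57 (limma adjusted p = 0.00361). Its other probe set gave 6.78, 6.86 and 7.42, in the same order. Near-identical copies of Gpr31b are named in the mouse annotation, so its signal is uncertain. Gpr139, an orphan receptor of the brain, had signals of 6.62, 6.86 and 7.04, 0.50 ± 0.16 (SE) above (limma adjusted p = 0.0195). For Gpr31b and Gpr139 the order of the arrays was also that of their background levels, replicate 2 lowest and replicate 5 highest. Leaving out replicate 2 or replicate 4 ended the call of Gpr139 (limma adjusted p = 0.0603 and 0.121).

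The Gpr-numbered genes with known ligands or coupling were mostly under the level. The proton-sensing receptors Gpr4, Gpr65 and Gpr132 had means of 5.86 ± 0.21, 4.62 ± 0.57 and 6.10 ± 0.16. They exceeded the level on no array, as did 43.7% of all genes. Gpr65 was highest in replicate 2 (5.26, 4.40 and 4.19 in replicates 2, 4 and 5) but stayed under the level there. Gpr3, Gpr6, Gpr12 and Gpr26, which raise cAMP without added ligand, passed in 0 of 4 cases, against 37.3% of all genes. The unadjusted p of none was under 0.05. Gpr3 came closest, with signals of 6.40, 6.26 and 6.90 and a limma adjusted p of 0.317. Both receptors tied to prosaposin, Gpr37 (5.85 ± 0.22) and Gpr37l1 (5.81 ± 0.24), the class C receptors Gpr158 (5.38 ± 0.15) and Gpr179 (6.28 ± 0.33), and the ciliary Hedgehog regulator Gpr161 (5.90 ± 0.24) had means under it, although Gpr179 exceeded the level on 2 arrays.

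Of 17 receptors with lipid, metabolite or chemokine-type ligands, 1 passed (5.88%), Gpr31b, against 37.3% of all genes and 18.6% of the 97 members. Gpr35, which kynurenic acid activates, had signals of 6.62, 6.62 and 6.87, above the level on every array, and narrowly missed the threshold (limma adjusted p = 0.0542). Gpr18 (6.49 ± 0.11) and Gpr25 (6.61 ± 0.13) had means above it without a call. The immune cell receptors Gpr174 (3.62 ± 0.20) and Gpr34 (4.0 ± 0.11) were among the 5 lowest members, with Gpr141 (3.86 ± 0.28), Adgre4 and Adgrf4. The oxysterol receptor Gpr183 was at 6.04 ± 0.22, the chemerin receptor Gpr1 at 5.62 ± 0.23 and Gpr119 at 5.70 ± 0.67, where replicate 4 (6.46) exceeded the others (5.20 and 5.43 in replicates 2 and 5). The means of the 16 that were not called ran from 3.62 to 6.71.

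Among 32 further orphans 2 passed (6.25%), Gpr20 and Gpr139, against 37.3% of all genes and 18.6% of the 97 members. The means of the other 30 ran from 3.86 to 6.75. Gpr146, a regulator of lipoprotein secretion in mouse liver, had signals of 6.71, 6.91 and 6.64, above the level on every array, and lay at the threshold (limma adjusted p = 0.0516). Gpr27 (6.70 ± 0.16), Gpr62 (6.70 ± 0.49) and Gpr75 (6.67 ± 0.12) had means above the level and limma adjusted p of 0.0798, 0.12 and 0.0985. So did Gpr63 (6.59 ± 0.46), Gpr153 (6.51 ± 0.18), Gpr52 (6.40 ± 0.44) and Gpr135 (6.40 ± 0.28), with limma adjusted p from 0.341 to 0.794. Of these orphans Gpr21 differed most between arrays, with 4.71 in replicate 4 against 6.38 and 6.16 in replicates 2 and 5.

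The choice of background level moved these counts more than any other setting tried. With the 99th percentile of olfactory receptor genes as the level, 6 members passed (6.19%), against 16.6% of all genes. They were Adgrl2, Adgre5, Adgrf5, Adgrg1, Gpr137b and Gpr137b-ps. With keratin-associated protein genes as the level, 2 passed, Adgrl2 and Gpr137b-ps, against 3.56% of all genes. The looser levels moved the count the other way, to 36 members (37.1%) with the 90th percentile, against 50.0% of all genes, and to 52 members (53.6%) with vomeronasal receptor genes as the level, against 65.9% of all genes.

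Among called members the arrays differed from each other most in the adhesion receptors. Over all 26 adhesion receptors, called or not, the median SD was 0.15, against 0.20 for Gpr-numbered genes and 0.22 for all genes. The highest and lowest arrays lay over 1 log2 unit apart in 5 of the 18 called members (27.8%), against 13.7% of all called genes. All 5 were adhesion receptors, out of 8 called, and none was among the 10 called Gpr-numbered genes. In Adgrl4, Adgre5, Adgrf5, Adgrg1 and Adgrl2 the range was 2.46, 1.67, 1.42, 1.33 and 1.02 log2 units. Replicate 2 was highest in 4 of these 5, so 4 of 18 called members had such a range with replicate 2 on top, against 7.3% of all called genes. Replicate 2 was the highest array in 7 of the 18 called members and in 43.8% of all called genes. With the mean of its probe sets Adgrl2 had a range of 0.70 and the count was 4. With 3 arrays of 1 group the difference between arrays could not be tested.

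Markers of other cell types differed between the same arrays. Of 8 endothelial markers above background, 7 were highest in replicate 2, against 43.8% of all called genes. The median gene of the 8 stood 0.84 above the mean of the other arrays there. The 4 brightest of the 8 were Emcn, with signals of 9.81, 9.15 and 8.69, Egfl7, with 8.15, 7.21 and 7.50, Flt1, with 8.69, 7.0 and 7.04, and Pecam1, with 9.03, 6.87 and 6.79 in replicates 2, 4 and 5. Their excess in replicate 2 over the mean of the other arrays was 0.80 in Egfl7, 0.89 in Emcn and 1.67 in Flt1, and larger still in Pecam1. Ehd3, named after its values were seen, was the 1 called marker highest in replicate 5. Erg was at 6.84, 5.82 and 5.74 and was not called. The log2 signals of all 14 endothelial markers summed to 106.5, 96.9 and 95.3 in replicates 2, 4 and 5. Adgrl4, Adgre5 and Adgrf5 were highest in the same array, as were 7 of 12 mural and 2 of 2 called podocyte markers. Called intercalated cell markers had a median shift of -0.37 in replicate 2. The part of endothelial transcripts in the signals of Adgrl4, Adgre5 and Adgrf5 was not tested. Erg was the 1 marker of the 14 whose mean was under the level.

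Few immune markers were above background, and their values are given beside the leukocyte receptor Adgre5. The summed signals of 12 macrophage markers were 68.6, 69.7 and 71.8 and those of 8 lymphocyte markers 42.6, 42.9 and 43.3 in replicates 2, 4 and 5, which is also the order of the background levels of these arrays. Of the 12 macrophage markers 2 were called (16.7%), Cx3cr1 (7.65 ± 0.33) and Tyrobp (6.73 ± 0.19), against 37.3% of all genes. These 2 had a median shift of -0.41 in replicate 2, the array where Adgre5 was highest. Itgam (4.43 ± 0.25) was the lowest. The part of immune cell transcripts in the signal of Adgre5 was not tested. Adgrg1 was highest in replicate 4. So were all 7 thick ascending limb markers, 6 of 7 called principal cell markers and 6 of 8 intercalated cell markers. Proximal tubule markers were split, with 6 of 12 highest in replicate 4 and 6 in replicate 2. The share of all called genes highest in replicate 4 was not counted, so these counts have no base to be read against. In replicate 4 the median shift of called markers was 0.62 for the thick ascending limb and 0.60 for principal cells. It was 0.42 for intercalated cells and 0.36 for the proximal tubule, against 0.05 over all called genes. Summed signals in replicates 2, 4 and 5 were 70.4, 72.8 and 66.8 for the thick ascending limb and 57.7, 64.3 and 60.6 for principal cells. For intercalated cells they were 61.3, 65.5 and 64.3, and for the proximal tubule 130.7, 130.9 and 122.0. Markers of the distal and connecting tubule differed, with 2 of 4 called markers highest in replicate 4, the other 2 in replicate 5, and sums of 47.6, 48.6 and 49.1. The part of transcripts from any of these segments in the signal of Adgrg1 was not tested. Mural markers differed less, with a median shift of 0.11, -0.13 and 0.15 in replicates 2, 4 and 5.

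**Figure D4:**
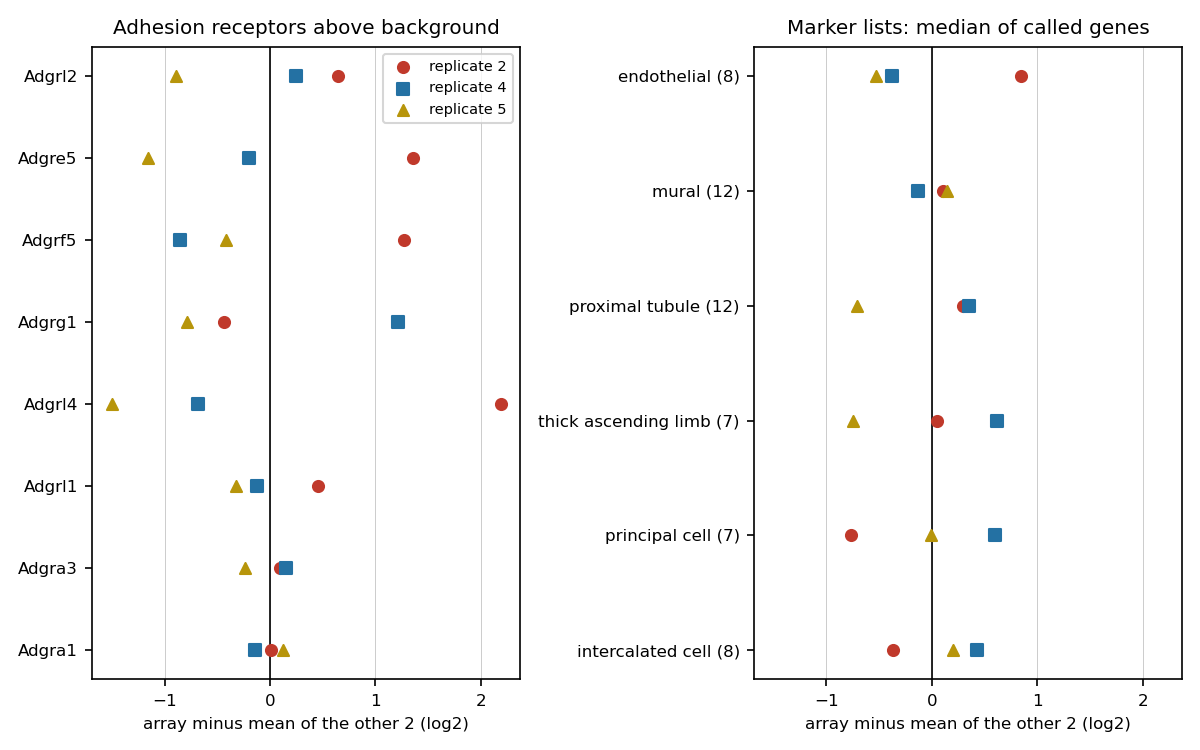
Left, log2 signal of each array minus the mean of the other 2 for the 8 adhesion receptors above background. Right, the median of the same difference over the called genes of 6 marker lists, with their number in brackets. Replicate 2 lies furthest right for Adgrl4, Adgre5, Adgrf5, Adgrl2, Adgrl1 and the endothelial list (0.84). Replicate 4 does for Adgrg1, Adgra3 and the thick ascending limb (0.62), principal cell (0.60), intercalated cell (0.42) and proximal tubule (0.36) lists. Replicate 5 does for Adgra1 and the mural list (0.15).

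Neighbouring genes were compared because adhesion receptor genes lie in tandem in the genome. In the RefSeq order of protein-coding genes 8 pairs of members are direct neighbours. Adgrl2 lies beside Adgrl4 and Adgre5 beside Adgrl1, and both genes of each pair were called. Adgrf5 (8.86 ± 0.75) lies beside Adgrf1 (4.69 ± 0.05), and Adgrg1 (8.52 ± 0.71) beside Adgrg3 (6.35 ± 0.14), and in each pair the first was called and the second was not. In the remaining 4 pairs (Gpr34 and Gpr82, Gpr18 and Gpr183, Gpr141b and Gpr141, Adgrf4 and Adgrf2) neither was. In addition 12 members lie inside the span of another protein-coding gene. Of their 10 host genes 9 were above background, against 37.3% of all genes. Of the 12 members 1 was, Gpr108 within the span annotated for Trip10, against 18.6% of the 97 members. These counts are of few genes and their difference was not tested. Gpr21 (5.75 ± 0.91), for example, lies within Rabgap1, whose mean signal was 8.85, and Gpr75 within Erlec1, with a mean of 9.56.

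Promoters of called members with arrays over 1 log2 unit apart are shown beside those of Adgra3 and Gpr107, whose arrays lay closer. Adgra3 and Gpr107 are examples rich in CG pairs. Gpr31b and Gpr89, which are poorer in them and also had arrays within 1 log2 unit, are not shown. CpG-rich promoters are known from widely used genes and CpG-poor ones from tissue-restricted genes. The RefSeq table (build GRCm38.p6) gives 250 bases before to 50 after a start for 72 of the 97 members, 13 of them called, and for 27025 genes in all. CG pairs are in capitals, and each run reads 5′ to 3′ on the strand of the gene. Adgrl4 (chr3:151437632-151437931, plus strand) holds 8 CG pairs. Adgrf5 has a first start (chr17:43360181-43360480, plus strand) and a second (chr17:43389216-43389515, plus strand), each with 8. Adgrg1 (chr8:94976859-94977158, plus strand, the first of its starts) holds 7, and Adgrl2 (chr3:148954586-148954885, minus strand) holds 4. The 50 bases after the start of Adgrl2 begin with ATG, so that start may be one of coding and its run may not be a promoter. Adgra3 (chr5:50058947-50059246, minus strand) holds 34 and Gpr107 (chr2:31152066-31152365, plus strand) 20.
Adgrl4: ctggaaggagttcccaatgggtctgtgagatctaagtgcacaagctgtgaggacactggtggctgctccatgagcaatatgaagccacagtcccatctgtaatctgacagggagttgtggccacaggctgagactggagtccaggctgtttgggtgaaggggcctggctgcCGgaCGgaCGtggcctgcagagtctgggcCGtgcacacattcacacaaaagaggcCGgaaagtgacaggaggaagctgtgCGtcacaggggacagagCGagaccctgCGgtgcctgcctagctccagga
Adgrf5 first start: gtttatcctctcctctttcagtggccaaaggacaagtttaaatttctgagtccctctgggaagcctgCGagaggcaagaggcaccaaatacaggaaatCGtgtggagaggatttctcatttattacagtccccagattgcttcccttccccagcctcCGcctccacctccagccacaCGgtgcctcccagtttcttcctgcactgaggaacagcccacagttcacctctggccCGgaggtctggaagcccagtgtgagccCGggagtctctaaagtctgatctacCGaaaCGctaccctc
Adgrf5 second start: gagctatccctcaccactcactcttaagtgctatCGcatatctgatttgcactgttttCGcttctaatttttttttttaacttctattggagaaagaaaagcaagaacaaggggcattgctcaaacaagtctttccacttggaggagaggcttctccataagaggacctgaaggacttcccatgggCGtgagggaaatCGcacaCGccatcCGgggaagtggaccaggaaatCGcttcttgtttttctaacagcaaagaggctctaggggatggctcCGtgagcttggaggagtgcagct
Adgrg1: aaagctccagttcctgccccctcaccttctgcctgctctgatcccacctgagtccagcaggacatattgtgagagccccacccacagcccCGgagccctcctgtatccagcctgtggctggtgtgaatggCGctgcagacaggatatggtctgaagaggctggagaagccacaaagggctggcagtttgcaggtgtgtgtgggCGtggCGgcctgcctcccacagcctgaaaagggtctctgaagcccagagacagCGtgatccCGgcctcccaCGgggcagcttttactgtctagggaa
Adgrl2: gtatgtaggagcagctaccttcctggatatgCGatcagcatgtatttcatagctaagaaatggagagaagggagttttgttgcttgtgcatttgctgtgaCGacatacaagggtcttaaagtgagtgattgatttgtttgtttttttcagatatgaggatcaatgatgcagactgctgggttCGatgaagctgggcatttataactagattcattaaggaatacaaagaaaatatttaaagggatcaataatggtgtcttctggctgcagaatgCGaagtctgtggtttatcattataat
Adgra3: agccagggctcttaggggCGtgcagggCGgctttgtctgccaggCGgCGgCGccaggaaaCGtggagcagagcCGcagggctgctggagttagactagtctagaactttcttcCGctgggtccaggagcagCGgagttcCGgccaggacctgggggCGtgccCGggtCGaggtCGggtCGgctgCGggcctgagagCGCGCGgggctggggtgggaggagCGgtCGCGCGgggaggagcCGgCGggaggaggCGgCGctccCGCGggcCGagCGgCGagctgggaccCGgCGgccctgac
Gpr107: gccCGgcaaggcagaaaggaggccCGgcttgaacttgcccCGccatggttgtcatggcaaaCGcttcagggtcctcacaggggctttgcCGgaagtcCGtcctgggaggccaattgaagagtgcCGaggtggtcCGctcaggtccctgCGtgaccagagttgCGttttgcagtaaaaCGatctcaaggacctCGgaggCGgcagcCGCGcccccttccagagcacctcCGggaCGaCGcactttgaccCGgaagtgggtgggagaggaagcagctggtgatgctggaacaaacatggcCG

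The CpG ratio is the number of CG pairs over that expected from the C and G content, taken at the start with the highest ratio. It was 0.32 for Adgrl4, 0.48 for Adgrf5, 0.25 for Adgrg1 and 0.42 for Adgrl2, the 4 members with arrays over 1 log2 unit apart that have an entry. All 4 were at 0.6 or less, but the run listed for Adgrl2 may not be a promoter. With the mean of its probe sets Adgrl2 had a range of 0.70 and left this group. Of the 9 other called members with an entry 7 were over 0.6, among them Adgra3 (0.89), Adgrl1 (0.77), Adgra1 (0.69), Gpr137 (1.02), Gpr180 (0.91), Gpr108 (0.74) and Gpr107 (0.69). Gpr89 (0.56) and Gpr31b (0.16) were under it with arrays within 1 log2 unit. Over all called genes the corresponding difference was small: 15.9% of 1355 genes with a ratio of 0.6 or less had arrays over 1 log2 unit apart, and 13.1% of 4657 genes with a higher one. The split among 13 members is a description and was chosen after their values were seen.

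Calls were also set beside CpG content, with no test of the difference from all genes. Of 28 members with a ratio over 0.6, 7 were above background (25.0%), against 54.2% of all measured genes with such a ratio. Of 44 members with a ratio of 0.6 or less, 6 were called (13.6%), against 19.3% of all measured genes. The 6 include Adgrl2, whose listed start is uncertain. Adgrg6 (1.08), Adgrl3 (0.94) and Adgrb2 (0.90) had high ratios without a call. Of 72 members 33 (45.8%) held the GC box GGGCGG on either strand, against 37.1% of 27025 genes, and 15 (20.8%) held the ETS-type word GGAAGT, against 24.1%. Both words were searched within the 300 bases only, and a match is no evidence of binding.

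**Figure D5:**
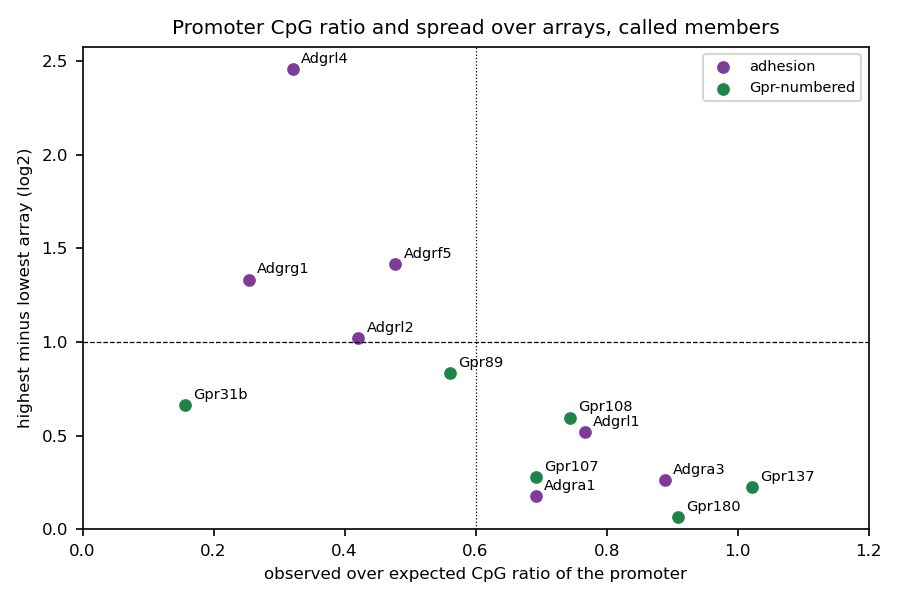
Observed over expected CpG ratio of the promoter (horizontal) and difference between the highest and lowest array in log2 units (vertical) for the 13 called members with a promoter entry. The dashed line marks 1 log2 unit and the dotted line a ratio of 0.6. Adgrl4, Adgrf5, Adgrg1 and Adgrl2 are alone above the dashed line, all left of the dotted one. Gpr31b and Gpr89 also lie left of the dotted line, but under the dashed one. The run listed for Adgrl2 may not be a promoter.

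Reported partners of adhesion receptors were above background in 9 of 26 cases (34.6%), against 37.3% of all genes, and their median mean signal was 6.39, against 6.33. Of the 7 teneurin and FLRT genes, whose products latrophilins bind, 2 passed, Flrt1 (8.35 ± 0.24) and Tenm4 (6.84 ± 0.21). Flrt2 (6.42 ± 0.47), Tenm2 (6.17 ± 0.17), Tenm3 (5.90 ± 0.36) and Tenm1 (5.15 ± 0.30) did not, and Flrt3 (4.70 ± 0.05) was the lowest of the list. Both listed partners of Adgrg1 passed, the collagen gene Col3a1 with 7.03, 6.88 and 7.50 and the transglutaminase gene Tgm2 with 7.80, 8.18 and 7.41. The CD97 partner Cd55 did not, with signals of 4.98, 6.20 and 5.27, and nor did Thy1 (6.20 ± 0.17). Sftpd, which encodes surfactant protein D and is a reported partner of Adgrf5, was at 5.60 ± 0.25. Prnp (7.98 ± 0.62) and Col4a1 (7.23 ± 0.05), reported for Adgrg6, passed although that receptor did not, as did Reck (7.58 ± 0.60) beside Adgra2 and Thbs1 (8.05 ± 0.43) beside Adgrb1. The teneurins, Flrt2, Col3a1, Col4a1, Cd55, Thy1, Sftpd and Reck were named after their values were seen.

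Ligands, or enzymes that make them, of Gpr-numbered receptors passed in 5 of 10 cases (50.0%), against 37.3% of all genes. Their median mean signal was 6.76, against 6.33 for all genes. Psap, the prosaposin gene, had signals of 10.80, 10.90 and 10.56 and Rarres2, the chemerin gene, signals of 11.56, 11.02 and 11.36, both far above the level. The receptor genes set beside them, Gpr37, Gpr37l1 and Gpr1, were under it. Pla1a (8.04 ± 0.32), a phospholipase that releases lysophosphatidylserine, and Abhd16a (7.58 ± 0.06), which makes that lipid, passed, while Gpr34 and Gpr174, its receptors, were among the 5 lowest members. Ch25h (5.0 ± 0.25), which makes the precursor of the Gpr183 ligand, did not pass.

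Of 6 measured genes for arrestins and receptor kinases, which switch receptors off, 2 passed (33.3%), against 37.3% of all genes. They were Grk5 (7.66, 7.29 and 6.85) and Grk3 (7.68, 7.05 and 6.60). Both were highest in replicate 2 and missed the threshold without it (limma adjusted p = 0.0563 and 0.168). Grk4 (4.18 ± 0.13) was the lowest.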

How the data were processed

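RNA of 3 samples was amplified (NuGEN), labelled with biotin and hybridised to Affymetrix arrays. The deposited values are log2 signals, 1 per probe set and array, made by the authors with Affymetrix Expression Console, per the submitters' processing notes. Which summary, background and normalization steps that tool ran was not stated in the sources used here, and the log2 scale was inferred from the range of 2.21 to 13.96. Values cannot show depth, so the number of arrays, 3, limits the precision.

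Symbols came from the platform's annotation, where 21789 probe sets had 1 symbol, 1621 several and 12147 none. Entrez identifiers matched a RefSeq table (GRCm38.p6) for 21698 and changed 0 symbols. For the 999 genes with several probe sets the brightest was taken. The background level was the 95th percentile of 1027 olfactory receptor genes. The log2 signal minus that level was tested one-sided against 0 by limma 3.58.1 under R 4.3.3, with an intercept as the only term and a variance prior that follows the mean signal, and Benjamini-Hochberg adjustment over 19938 genes and a threshold of 0.05. The fit was tested on simulated data.

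Members, role groups and the 16 lists of partners, effectors and cell type markers were chosen with earlier results of these data known. Of 167 listed symbols 160 were measured. The result of 1 list is counted in the totals and is otherwise not reported here. The members named are those called, those with a mean above the level, the 5 lowest, those with probe sets over 1 log2 unit apart and those furthest from the other arrays. Genes named from a list are among its 4 brightest called ones or its lowest, and others are marked. No gene of the tubule, fibroblast, podocyte, lymphocyte and nerve lists is named, and these lists are given by counts, summed signals or median shifts. Others were named as examples of their role. A further 9 symbols of the rule that RefSeq holds were not used here. Python 3.11.15, pandas 2.3.3 and numpy 2.4.6 were used. The 11 alternatives changed the level, probe set rule, normalization, variance prior, dim filter or arrays.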

Additional observations from a re-analysis of the deposited data

How the results depend on the processing

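The level taken as background set the counts. Called members numbered 6, 36, 52 and 2 with the 99th and 90th percentiles of olfactory receptor genes and the vomeronasal and keratin-associated levels, against 18. Adhesion receptors numbered 4, 14, 16 and 1, against 8, and Gpr-numbered genes 2, 22, 36 and 1, against 10. The genes of all lists numbered 48 and 25 with the 99th percentile and the keratin-associated level, against 88 of 160, and all genes 3303, 9964, 13140 and 709, against 7437. Leaving out 1 replicate gave 13 to 20 members, 6 to 8 adhesion receptors, 7 to 12 Gpr-numbered genes and 74 to 91 list genes. The other settings gave 20 to 24 members.

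At the 99th percentile the means of Adgra1 (-0.37), Gpr137 (-0.26), Gpr139 (-0.36), Gpr180 (-0.15), Gpr31b (-0.025) and Grk3 (-0.10) fell under the level. At the keratin-associated level so did those of Adgra1 (-1.83), Adgra3 (-1.06), Adgrg1 (-0.15), Adgrl1 (-1.04), Adgrl4 (-0.85), Gpr107 (-1.36), Gpr108 (-0.77), Gpr137 (-1.72), Gpr139 (-1.83), Gpr180 (-1.61), Gpr20 (-0.81), Gpr31b (-1.49), Gpr89 (-1.42), Flrt1 (-0.31), Tgm2 (-0.87), Prnp (-0.68), Thbs1 (-0.61), Pla1a (-0.63), Abhd16a (-1.08), Grk3 (-1.56) and Grk5 (-1.40). These shifts follow from the higher level subtracted. Gpr146 and Gpr35 passed with the mean of probe sets, quantile normalization, no trend and the dim filter. Adgrl2 and Gpr137b-ps passed under all 11 alternatives.

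Signal over background limits the calls: 8 members that did not pass exceeded the level on all 3 arrays. No paired analysis was possible because the series has 1 group.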
